A study of Mus musculus with 12 samples.

Results

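miR-31 and its star strand, listed on the array as mmu-miR-31 and mmu-miR-31*, are the mature products of the opposite arms of a single precursor hairpin. They were taken by name from the scanner tables and were chosen by their known behaviour in these data, the loss of both signals in wild-type cells given tunicamycin and their presence in knockout cells given the same drug. They are 2 of the 611 mouse miRNAs on an array of 650 miRNAs. Both also belong to the 176 mouse miRNAs that entered the fit, a set for which detection was required on each array of some group.

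Levels of mature miRNAs were read from mouse embryonic fibroblasts of C57BL/6 background on 12 Agilent arrays of 1 colour, with 2 arrays in each of 6 groups. ATF6bKO fibroblasts were untreated, or were given tunicamycin at 2 ug/mL for 12 h or for 24 h, and ATF6bWT fibroblasts were untreated or were given the same dose for the same times. The 2 arrays of a group come from independent experiments per the design text, which asks which miRNAs answer to 12 h of the drug depending on ATF6b. The sources used here do not give how the knockout was made or how many embryos or lines stand behind each genotype. Genotype labels went unchecked, as a miRNA array holds no probe for the ATF6b mRNA.

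A miRNA is cut from a hairpin as a duplex, of which usually the guide strand is retained in Argonaute and represses mRNAs that match its seed, while the opposite strand, marked with a star in older names, is mostly degraded. miR-31 is best known from cancer, where it restrains invasion and metastasis in human breast cancer models, and from human endometrial stroma, where cancer-associated fibroblasts carry less of it than normal fibroblasts. ATF6b is a membrane-bound transcription factor of the endoplasmic reticulum that is cleaved when unfolded proteins build up, and tunicamycin provokes that state by blocking N-linked glycosylation.

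The sequences are given first because both strands were measured by separate probes. They are RefSeq records on build GRCm38.p6, written 5′ to 3′, with the seed (bases 2 to 8) in capitals. Matched by name, the array's mmu-miR-31 is mmu-miR-31-5p in RefSeq, at chr4:88910614-88910635 on the minus strand, and mmu-miR-31* as mmu-miR-31-3p, at chr4:88910577-88910599 on the same strand.
mmu-miR-31: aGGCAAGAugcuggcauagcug
mmu-miR-31*: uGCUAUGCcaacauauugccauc
The seeds differ, and no other entry among the 1738 mature mouse sequences of the RefSeq table has the seed of either strand. The hairpin is shown next with its arms in capitals, the first being miR-31 (bases 28 to 49) and the second miR-31* (bases 64 to 86).
Mir31 hairpin: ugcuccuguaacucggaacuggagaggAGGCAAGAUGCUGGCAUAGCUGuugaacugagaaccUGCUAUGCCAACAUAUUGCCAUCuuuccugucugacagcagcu
It covers 106 bases at chr4:88910557-88910662. In the fold predicted by RNAfold, with a free energy of -48.7 kcal/mol, 17 of the 22 bases of miR-31 pair with the opposite arm.

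The hairpin lies inside Gm49890, a long noncoding RNA gene annotated at chr4:88909854-88942042 on the same build, which makes the precursor part of a noncoding transcript. The nearest protein-coding genes are the interferon gene Ifne, 30.4 kb away on 1 side, and Mtap, 226.7 kb away on the other. Mtap, an enzyme of methionine salvage, is followed by the cell cycle inhibitor gene Cdkn2a at 363.8 kb.

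Signals below are background-subtracted intensities, averaged over the spots of a probe, summed over the probes of a miRNA and given as a percent of the array's 75th percentile, taken over 93 miRNAs with a detection flag on every array. Between 114 and 191 miRNAs were detected per array by the scanner software's flag. The 75th percentile was 208 to 257 intensity units on 3 arrays (replicate 2 of knockout cells at 12 h and at 24 h and of wild-type cells at 24 h) and 412 to 623 on the other 9. Untreated and treated arrays were on separate slides, and on both slides each genotype filled a row of its own. The slide therefore cannot be told apart from the treatment, nor the row from the genotype. Of 13 fibroblast miRNAs on the array other than miR-31, 9 to 12 were detected per array, miR-21 on all 12, whereas 0 of the blood, neural, and endothelial and liver markers were detected on any array. Of the muscle markers miR-206 was detected on 8 arrays, including all 4 treated wild-type arrays, and of the pluripotent markers miR-290-5p was detected on 2 and miR-294 on 1.

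miR-31 was present in every group except tunicamycin-treated wild-type cells. Knockout cells gave 40.4% and 38.0% untreated, 42.4% and 34.9% at 12 h, and 42.4% and 28.8% at 24 h of tunicamycin. Wild-type cells gave 35.8% and 30.3% untreated, -0.317% and -0.413% at 12 h, and -0.162% and -0.0519% at 24 h. The 6 knockout arrays and both untreated wild-type arrays thus lay together, and the 4 treated wild-type arrays lay at or slightly below their background, with no overlap.

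**Figure D1:**
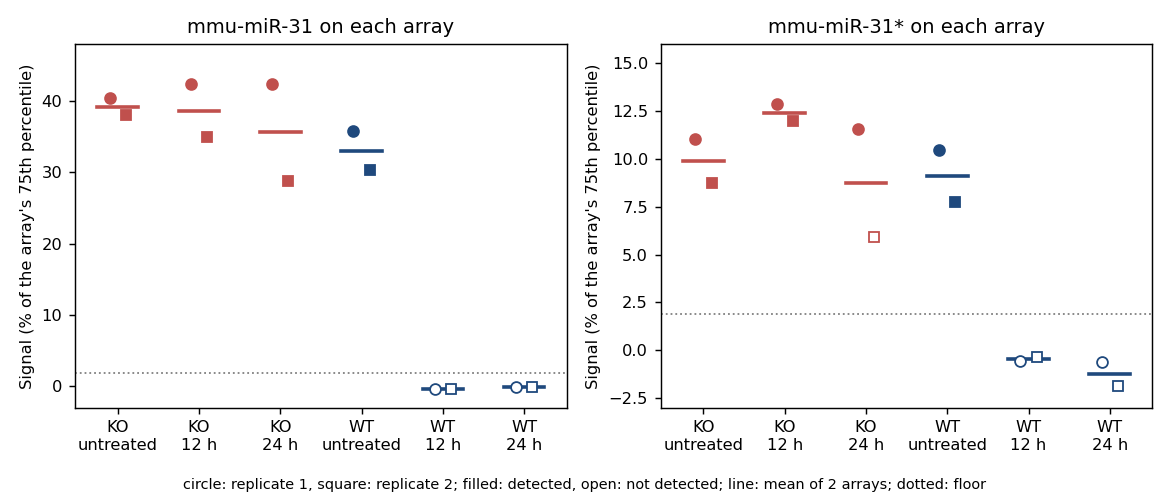
Signal of mmu-miR-31 (left) and mmu-miR-31* (right) on each of 12 arrays, as a percent of the array's 75th percentile, by genotype and hours of 2 ug/mL tunicamycin. Points are arrays (open where not detected), horizontal lines are means of 2 arrays, and the dotted line is the floor of 1.91%. Both strands sit near 0 on the 4 treated wild-type arrays and above the floor on the other 8.

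The loss in wild-type cells is a description and carries no test, since it chose the members. miR-31 averaged -0.365% ± 0.0673 in treated wild-type cells at 12 h and 33.0% ± 3.91 in untreated wild-type cells (SD, n = 2 each). This is at least 13.0-fold lower, counting each treated array at the higher of its own lowest detected signal and the floor of 1.91%. At 24 h, with a mean of -0.107% ± 0.0779, the level was at least 11.4-fold lower than untreated. On the log2 scale, with values floored at 1.91% of the 75th percentile, the difference was -4.10 at both times, where the treated mean is the floor itself. Among the 176 tested miRNAs miR-31 had the lowest log2 difference at 12 h and at 24 h, and miR-31* the second lowest at both. These ranks use the difference that chose the members. For miR-31* the rank also follows the floor, which sets its difference of -2.23 at both times. miR-143 stayed detected while its mean log2 value went from -0.75 in untreated wild-type cells to -2.64 at 12 h and -2.88 at 24 h. Arrays that do not overlap, with treated cells lower, are frequent in these comparisons, at 39.8% of tested miRNAs at 12 h and 43.8% at 24 h, so lack of overlap alone sets neither strand apart.

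The treated wild-type arrays at 12 h had 75th percentiles of 617 and 477 intensity units, against 568 and 539 on the untreated wild-type arrays. At 24 h they were 582 and 257. The limits take the higher of an array's lowest detected signal and the floor. These limits were 1.91%, which is the floor, and 3.33% at 12 h. At 24 h the limits were again the floor of 1.91%, and 4.39%. The part of array brightness in the values was not tested. In bulk RNA, fewer cells that carry a miRNA and less of it per cell cannot be told apart.

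The comparison of genotypes under tunicamycin also chose the members, and is likewise given with no test. miR-31 was at least 15.2-fold higher in knockout than in wild-type cells at 12 h and at least 12.1-fold higher at 24 h. Each scan of the treated slide held both genotypes. Each knockout array was set against the wild-type array of its scan, taken at its lowest detected signal or the floor if higher. The knockout arrays were at least 22.1-fold and 10.5-fold higher at 12 h and at least 22.2-fold and 6.57-fold higher at 24 h. Arrays did not overlap, with knockout higher, for 49.4% of tested miRNAs at 12 h and 43.2% at 24 h, and both strands are among them at both times. For miR-31* at 24 h this counts an undetected knockout array as higher, at its own signal of 5.89%.

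Treated and untreated knockout cells were compared by the fit. The treated knockout arrays also enter the comparison of genotypes that chose the members, so the choice favoured a kept signal on them, and a p above the threshold here is no support for an unchanged level. At 12 h miR-31 averaged 38.7% ± 5.25 in treated knockout cells and 39.2% ± 1.71 in untreated knockout cells (SD, n = 2 each), with overlapping arrays. The fitted log2 difference was -0.03 ± 0.20 (SE), with a 95% interval of -0.48 to 0.43 (limma, adjusted p = 0.965), in a comparison that called 25.6% of the 176 miRNAs at an adjusted p under 0.05. The median difference of all tested miRNAs there was 0.25.

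At 24 h miR-31 averaged 35.6% ± 9.63 in treated knockout cells, against 39.2% ± 1.71 in untreated knockout cells. The log2 difference was -0.16 ± 0.20 (SE), with an interval of -0.62 to 0.29 (limma, adjusted p = 0.579), where 30.7% of the 176 were called and the median of all was 0.15. The wide spread comes with replicate 2, at 28.8% the lowest knockout value and on the dimmest array of the study. Without that array the difference was 0.12 (limma, adjusted p = 0.827) and without replicate 1 it was -0.44 (limma, adjusted p = 0.0922), in place of -0.16. Between 24 h and 12 h in knockout cells it was -0.14, with an interval of -0.59 to 0.32 (limma, adjusted p = 0.892), and 0.568% of miRNAs were called.

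These intervals come from a spread shared by all 6 groups, of which the 2 treated wild-type groups sit at the floor and show no spread for either strand. Fitted without those 4 arrays, the intervals were -0.59 to 0.53 at 12 h and -0.72 to 0.40 at 24 h. Several other settings moved miR-31 lower without passing the threshold, and normexp background correction fitted on 500 quantiles, a setting added after seeing the data, moved it to 0.17 and 0.11. The difference was -0.24 ± 0.49 (SE) at 12 h and -0.39 ± 0.49 at 24 h when scaled over all mouse miRNAs, -0.47 and -0.46 with quantile normalization, and -0.10 and -0.44 with the software's total signal. With the log2 values that the authors deposited, in which no scaling was applied, it was -0.91 ± 0.67 (SE) at 12 h and -1.23 ± 0.67 at 24 h, beyond the lower ends of the intervals above. The median over all miRNAs tested with those unscaled values was itself -0.47 at 12 h and -0.62 at 24 h. Whether the response itself differs between the genotypes was not tested, because its wild-type part chose the members.

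**Figure D2:**
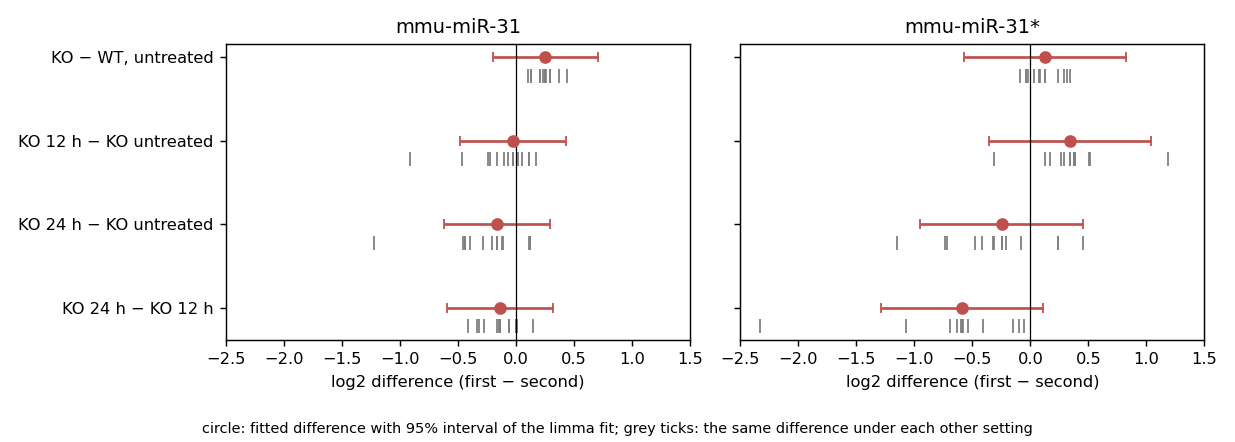
Fitted log2 differences of mmu-miR-31 (left) and mmu-miR-31* (right) for the 4 tested comparisons, first group minus second, with 95% intervals of the limma fit over 12 arrays. Grey ticks mark the same difference under each other processing setting. Every interval includes 0, from -0.48 to 0.43 for miR-31 in knockout cells at 12 h to -1.29 to 0.11 for miR-31* between 24 h and 12 h.

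Untreated, the mean signal of miR-31 was slightly higher on the knockout arrays than on the wild-type arrays. miR-31 averaged 39.2% ± 1.71 in untreated knockout cells and 33.0% ± 3.91 in untreated wild-type cells (SD, n = 2 each). The arrays did not overlap, with knockout higher, as for 17.0% of the 176 miRNAs. The log2 difference was 0.25 ± 0.20 (SE), with an interval of -0.20 to 0.71, and did not pass the test (limma, adjusted p = 0.548), in a comparison that called 11.4% of miRNAs, or 37 in place of 20 with the replicate number as a block. Within the 2 scans of that slide it was 0.17 and 0.33. The untreated wild-type arrays also enter the loss that chose the members, so the choice favoured a high signal on them. A p above the threshold is therefore no support for equal levels here.

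The star strand followed the same grouping at signals nearer the detection limit. miR-31* gave 11.0% and 8.74% in untreated knockout cells, 12.8% and 12.0% in knockout cells at 12 h, and 11.6% and 5.89% at 24 h. In wild-type cells it gave 10.4% and 7.73% untreated, -0.556% and -0.370% at 12 h, and -0.591% and -1.88% at 24 h. It was detected on 7 of 12 arrays: both untreated wild-type arrays and 5 of 6 knockout arrays. The exception was replicate 2 of knockout cells at 24 h, where the lowest detected signal of any miRNA was 6.63%, above the 5.89% of miR-31*.

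As a description, miR-31* was at least 3.56-fold lower in treated than in untreated wild-type cells at 12 h and at least 3.10-fold lower at 24 h. It was at least 4.92-fold higher in knockout than in wild-type cells at 12 h. At 24 h the bound was 2.85-fold over a mean that includes the undetected knockout array at its own signal. In the scan of the detected knockout array it was at least 6.05-fold higher, and in the other scan neither genotype was detected, so no fold is given. The bounds are lower than for miR-31 by construction, because the star signal starts closer to the limit of detection.

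In knockout cells the star strand did not pass a test either, with the same limit from the choice of members. Its log2 difference from untreated knockout cells was 0.34 ± 0.30 (SE) at 12 h, with an interval of -0.36 to 1.04 (limma, adjusted p = 0.460), although the arrays did not overlap, with treated cells higher, as for 50.6% of tested miRNAs. At 24 h it was -0.25, with an interval of -0.95 to 0.45 (limma, adjusted p = 0.582). This value rests on replicate 2, the undetected array. Without it the difference was 0.24, and without replicate 1, which leaves the undetected array alone, it was -0.74 and passed the threshold (limma, adjusted p = 0.0446). Between 24 h and 12 h it was -0.59, with an interval of -1.29 to 0.11 (limma, adjusted p = 0.648), and the arrays did not overlap, with 24 h lower, as for 21.0% of tested miRNAs.

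Untreated knockout and wild-type cells overlapped for the star strand, at 9.88% ± 1.61 in knockout cells and 9.09% ± 1.92 in wild-type cells (SD, n = 2 each). The log2 difference was 0.13, with an interval of -0.57 to 0.83 (limma, adjusted p = 0.956). The same limit from the choice of members holds, since the untreated wild-type arrays enter the loss that chose them.

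Each strand is read by 2 probes of 10 spots, so a group has 40 spots per strand. In treated wild-type cells 0 of the 80 spots of miR-31 and 0 of the 80 spots of miR-31* were well above background. In treated knockout cells these were 69 of 80 for miR-31 and 38 of 80 for miR-31*. Untreated, all 40 spots of miR-31 were well above background in both genotypes, and for miR-31* these were 30 of 40 in knockout cells and 33 of 40 in wild-type cells. The dim spots of treated knockout cells lie mostly on the dimmer replicate 2 arrays, and 0 of the 240 spots of either strand were saturated.

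The probes of a strand showed the same grouping separately. Probe A_54_P1322 of miR-31 gave mean intensities of 173 and 162 in untreated knockout cells, 138 and 64.1 at 12 h and 122 and 45.0 at 24 h. In wild-type cells it gave 139 and 115 untreated, -1.36 and -1.20 at 12 h, and -1.57 and -0.607 at 24 h. The second probe, A_54_P1323, ran from 14.9 to 79.0 on the 8 arrays that detected miR-31 and from -0.771 to 0.624 on the treated wild-type arrays. These are unscaled, so the lower values of replicate 2 in treated knockout cells go with the lower 75th percentiles of those arrays.

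The first probe supplied 68.6% and 71.4% of the miR-31 signal in untreated knockout cells, 73.0% and 74.6% at 12 h and 69.5% and 75.1% at 24 h, and 68.3% and 70.8% in untreated wild-type cells. The shares of treated and untreated knockout arrays overlap at 24 h and not at 12 h, and treated wild-type arrays give no share. For miR-31*, probe A_54_P3475 supplied 63.9% to 70.2% over the 7 arrays with a detected signal. On the treated wild-type arrays its mean intensity lay from -2.89 to -0.862, and that of probe A_54_P3474 from -1.97 to -0.550.

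**Figure D3:**
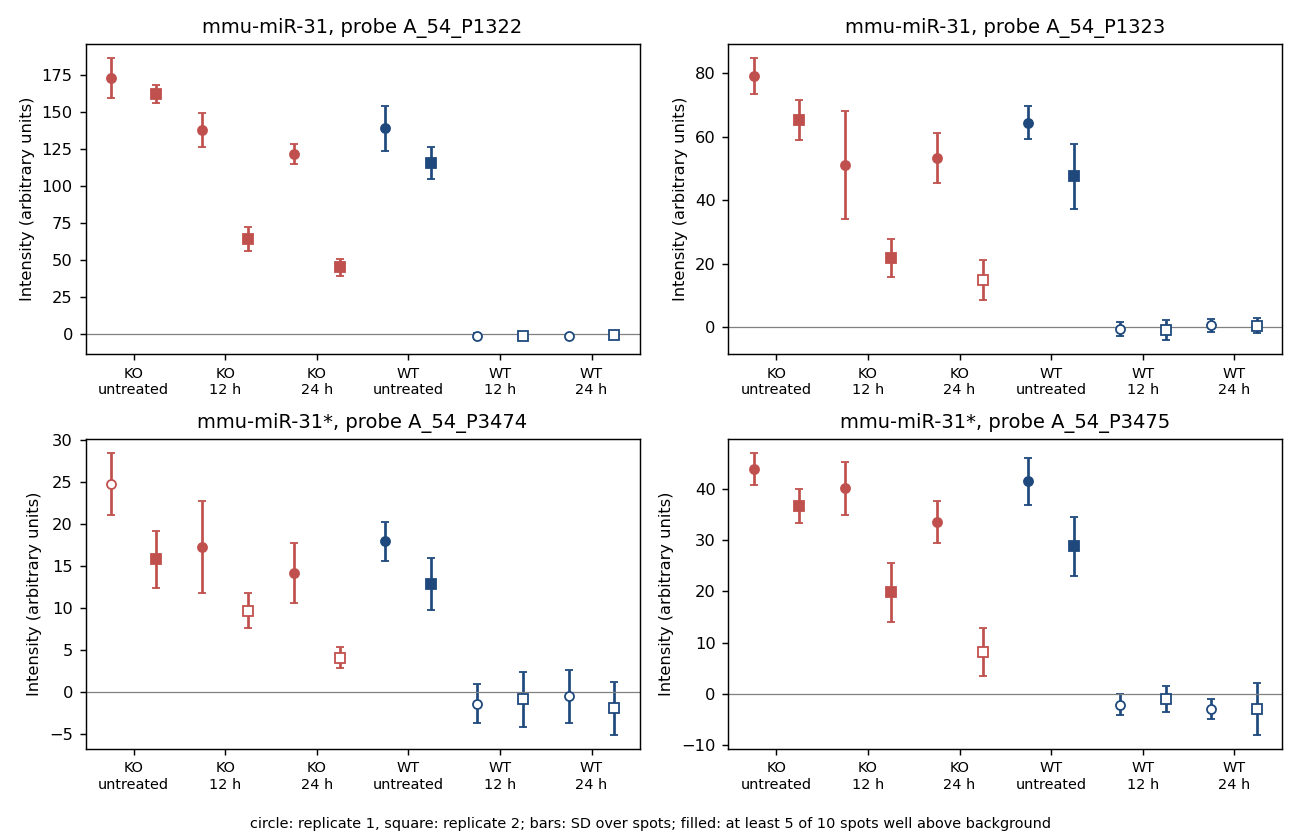
Mean background-subtracted intensity of the 2 probes of mmu-miR-31 (top) and the 2 probes of mmu-miR-31* (bottom) on each array, not scaled between arrays, with bars of 1 SD over the spots of the array. Filled points have at least 5 of 10 spots well above background. All 4 probes sit around 0 on the 4 treated wild-type arrays, and the treated knockout arrays of replicate 2 are dimmer than those of replicate 1.

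The members were chosen for a lost signal in wild-type cells, so a count of such losses is a description. Counted after their values were seen, 6 of the 176 tested miRNAs (3.41%) were detected on both untreated wild-type arrays and on none of the 4 treated ones: miR-31, miR-31*, miR-24-1*, miR-301b, miR-210 and miR-28*. In untreated wild-type cells the other 4 ran from 0.534% to 5.49%. Of these, miR-301b, miR-210 and miR-28* lay below 4.39%, the lowest detected signal of 1 treated wild-type array. A missing flag on that array therefore does not show a fall for them. The log2 difference of miR-28* was -0.03 at 12 h and at 24 h. Of the 6, miR-31 and miR-24-1* were detected on all 6 knockout arrays, miR-31* on 5, miR-301b on 3, and miR-210 and miR-28* on 0. miR-24-1*, the star strand of a miR-24 precursor, gave 4.76% to 8.83% in knockout cells. miR-210 and miR-28* were detected in untreated wild-type cells alone, so they entered the 176 only through the group they are lost from. At a single time, detection was lost on both treated arrays for 7 (12 h) and 6 (24 h) miRNAs in wild-type cells. In knockout cells the same counts were 8 and 6.

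Both strands of a precursor were tested for 11 miRNAs. Among the 10 pairs other than miR-31, the strands had the same sign of log2 difference between wild-type cells at 12 h and untreated wild-type cells in 8, and both were lower in 6. The strands differed most for miR-467b, with 3.06 for the star and -0.27 for the main strand, followed by let-7d, miR-28 and miR-376a. The floor sets part of these values, since miR-467b* and let-7d* were undetected in untreated wild-type cells and miR-28* was undetected in treated ones. Over these 10 pairs, star minus main strand ran from -0.77 to 3.33 with a median of -0.03. For miR-31 it was 1.87, which is the distance between the untreated log2 values of its strands, because both sit at the floor after treatment. Unequal loss of the strands was therefore not measurable.

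The profile of miR-31 over the 12 arrays was set against every tested miRNA, each centred on its own mean log2 value, by the root mean square difference. Lowest, its own star strand aside (0.91), were miR-99a at 0.88, miR-143 at 0.93, miR-23b at 1.05, miR-434-3p at 1.21 and miR-152 at 1.26, against 2.01 for a flat profile. miR-143 is a smooth muscle and fibroblast miRNA, miR-434-3p comes from the imprinted Dlk1-Dio3 region, and miR-152 shares the seed of miR-148. Since likeness chose them, their values are a description.

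miR-99a came nearest but differed in untreated cells. Its mean log2 value was -2.66 in untreated knockout cells, -2.40 at 12 h and -2.27 at 24 h, and in wild-type cells it was -4.16 untreated and at the floor of -5.71 at both times. It was still detected on 1 of 2 treated wild-type arrays at each time. miR-143 stayed measurable throughout, at -0.28, -0.13 and -0.53 in knockout cells over untreated, 12 h and 24 h, and at -0.75, -2.64 and -2.88 in wild-type cells. miR-23b, a member of a cluster with miR-27b, ran at 0.42, 0.53 and 0.62 in knockout cells and at 0.12, -1.66 and -1.60 in wild-type cells. All 3 were lower in treated than in untreated wild-type cells. In knockout cells miR-99a was 0.39 ± 0.12 (SE) log2 units higher at 24 h than untreated, while for miR-31 the same difference was -0.16. The fit called miR-99a (limma, adjusted p = 0.0396), as it did 30.7% of tested miRNAs. Since likeness over the same arrays chose miR-99a, that call is a description, and whether it differs from miR-31 was not tested.

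**Figure D4:**
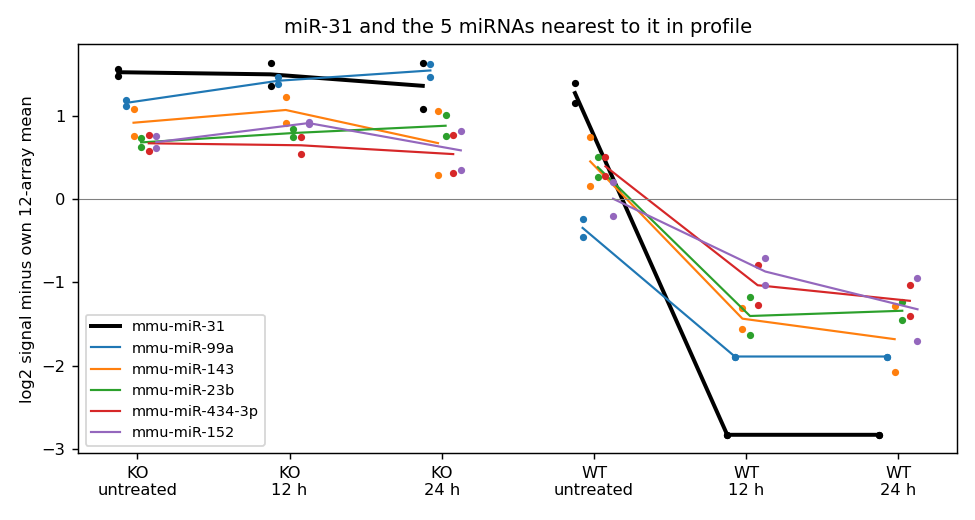
Log2 signal of mmu-miR-31 and of the 5 tested miRNAs nearest to it, each minus its own mean over 12 arrays, by genotype and hours of tunicamycin. Points are arrays and lines join group means of 2 arrays. Knockout groups sit above 0 for all 6 miRNAs and treated wild-type groups below 0, with miR-31 lowest after centring. Before centring, miR-31 and miR-99a were both at the floor of -5.71 in treated wild-type groups.

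The summed signal of epithelial miRNAs also separated treated knockout cells. Of 11 such miRNAs on the array, 5 to 7 were detected per array in knockout cells at 12 h and 4 to 7 at 24 h, with summed signals of 282% to 404% and 279% to 337% of the 75th percentile. In untreated knockout cells 0 were detected, with sums of 2.40% to 3.96%. Treated wild-type cells had 1 to 2 detected and sums of 8.26% to 13.1%, and untreated wild-type cells 1 to 2 and 6.22% to 7.06%.

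miR-200c, of the miR-200 group that marks epithelium, gave 144% to 230% in knockout cells at 12 h and 156% to 211% at 24 h, while miR-205, miR-203, miR-182 and miR-429 were undetected on every array. Not all listed miRNAs were confined to treated knockout cells, as miR-96 was detected on 10 arrays and miR-183 on 6. At 12 h miR-96 gave 11.4% to 14.3% in knockout cells and 5.10% to 8.49% in wild-type cells. miR-200b, miR-200c and miR-141 were undetected in untreated knockout cells, where miR-31 stood at 38.0% and 40.4%. The part of these miRNAs in the miR-31 difference between treated genotypes was not tested. The fibroblast list had 11 of 13 detected on each treated knockout array and 9 to 12 on treated wild-type arrays, with sums of 5052% to 5902% and 4589% to 4795%.

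The neighbourhood of the hairpin gave little to compare. The 8 nearest miRNA loci on chromosome 4 that the array covers, 4 on each side, supply 12 array miRNAs, of which 8 were detected on 0 arrays, among them miR-491 from the nearest locus at 0.788 Mb. miR-30c, which is 31.9 Mb away and has a further gene copy elsewhere, was the sole tested one. Its log2 difference from untreated cells at 12 h was -1.16 in knockout cells and 0.39 in wild-type cells.

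For the host gene Gm49890, the 300 bases around its annotated start (chr4:88941993-88942292, GRCm38.p6) were searched on both strands for short motifs of the stress response. CCACG, the part of the endoplasmic reticulum stress element bound by ATF6 factors, had 0 matches and occurs in 32.8% of 32851 mouse promoter windows of that length. TGACGTG, the core of the unfolded protein response element, had 0 matches and occurs in 2.01%. TGANTCA, the AP-1 motif, had 0 matches and occurs in 7.81%. The absence of these letters from this window says nothing about binding of any factor there or elsewhere.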

How the data were processed

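The authors deposited scanner tables of 12 arrays with spot intensity on a linear scale. RNA (100 ng) was labelled with Cy3 per the labels' protocols, and the submitters' processing notes name Agilent Feature Extraction 10.7.1.1. They also deposited a table of log2 values. Checked against the scanner tables, it is the software's total signal per miRNA on the log2 scale within 1.18e-06, unscaled, with no entry for undetected miRNAs. It served as an alternative.

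From the background-subtracted intensity, spots without outlier flags were averaged per probe and probes summed per miRNA. Scaling divided these by the array's 75th percentile, computed from 93 miRNAs flagged as detected throughout. Values were floored at 1.91% of it (log2 -5.71), the median over arrays of the lowest detected signal. The 176 mouse miRNAs for which some group had 2 detected arrays were fitted with limma 3.58.1 in R 4.3.3 (6 groups, 6 residual and 1.65 prior degrees of freedom, Benjamini-Hochberg over the 176, threshold 0.05). The fit was run on simulated data with noise independent between arrays, so that run cannot show the effect of deviations shared by scan. A bound sets the brighter group's mean against, per array of the dim group, the higher of the lowest detected signal and the floor. The number of arrays limits the precision.

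Same-numbered arrays share a scan within a slide: their deviations from group means correlated at 0.48 to 0.91 within slides and at -0.38 to -0.05 between them, so the number pairs arrays within a slide. Deviations shared by scan make the fit's degrees of freedom too large. Sequences come from RefSeq tables (GRCm38.p6), and folding used ViennaRNA 2.7.2. The members and all lists were chosen with earlier results of these data known. Named besides the members are the 5 miRNAs nearest in centred profile, up to 4 array loci on each side of Mir31, up to 4 strand pairs with the largest strand difference and list members by mean level. Alternatives changed the scaling, background, summary, floor, filter, probe, blocks and arrays used. The planned normexp correction used spot medians in place of means.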

Additional observations from a re-analysis of the deposited data

How the results depend on the processing

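The 4 tested differences of miR-31 passed the threshold under none of the 26 other settings (limma, lowest adjusted p 0.289 for knockout against wild type untreated, 0.212 and 0.0922 for knockout at 12 h and at 24 h against untreated, and 0.311 for 24 h against 12 h), and those of miR-31* passed only at 24 h against untreated without knockout 24 h replicate 1 (-0.74). Small differences changed sign. For miR-31 in knockout cells against untreated, these were 0.17 (12 h) and 0.11 (24 h) with normexp, 0.052 (12 h) with probe A_54_P1322 alone, and 0.11 (12 h) and 0.12 (24 h) without the 3 dimmer arrays. At 24 h against 12 h they were 0.0064 with quantile normalization and 0.0021 without the dimmer arrays. For miR-31* they were -0.023 with scaling over all mouse miRNAs and -0.040 with normexp for knockout against wild type untreated, -0.32 with quantile normalization at 12 h, and 0.45 with normexp and 0.24 without the dimmer arrays at 24 h.

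Leaving out 1 array at a time gave miR-31 0.13 to 0.37 for knockout against wild type untreated, -0.16 to 0.11 at 12 h and -0.44 to 0.12 at 24 h in knockout cells against untreated, and -0.42 to 0.14 for 24 h against 12 h. For miR-31* it gave -0.091 to 0.34, 0.17 to 0.51, -0.74 to 0.24 and -1.08 to -0.10 in the same order. With the replicate block no call changed, and the difference of miR-31 between untreated knockout and wild-type cells was again 0.25.

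The described losses kept their sign, but their size follows the floor. For miR-31 in wild-type cells against untreated the log2 difference at 12 h and at 24 h was -4.43 with scaling over all mouse miRNAs, -4.47 with quantile normalization, -5.10 with the floor halved, -3.10 with it doubled, -3.58 with probe A_54_P1322 alone and -2.39 with probe A_54_P1323 alone. With normexp, whose offset of 50 shrinks low signals, it was -1.32 at 12 h and -1.12 at 24 h. Leaving out 1 array gave -4.23 to -3.98. For knockout against wild type at 12 h and 24 h it was 1.61 and 1.36 with normexp, 5.33 and 5.19 with the floor halved, 3.33 and 3.19 with it doubled, 3.89 and 3.72 with the first probe, 2.40 and 2.33 with the second, and 4.19 to 4.47 and 3.91 to 4.47 without 1 array. For miR-31* in wild-type cells at 12 h and 24 h it was -2.55 with scaling over all, -2.79 with quantile normalization, -3.23 with the floor halved, -1.23 with it doubled, -0.52 with probe A_54_P3474, -1.71 with probe A_54_P3475, -0.50 and -0.31 with normexp, and -2.45 to -2.01 without 1 array. For its knockout against wild type at 12 h it was 2.51 with quantile normalization, 0.97 with normexp, 3.61 with the software's total, 3.70 and 1.70 with the floor halved and doubled, and 1.02 and 2.15 with each probe alone. At 24 h it was 0.72 with normexp, 1.28 with the total, 3.11 and 1.11 with the floor halved and doubled, 0.44 and 1.56 with each probe, 2.60 without the dimmer arrays and 1.62 to 2.60 without 1 array. The deposited log2 values give none of these, being empty on treated wild-type arrays.

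Counts of called miRNAs depend more on the setting: 20 for knockout against wild type untreated became 0 with scaling over all mouse miRNAs (15 at an unadjusted p under 0.05), 3 with quantile normalization, 37 with the replicate block, 39 with scan as a random block and 7 without wild-type untreated replicate 1. The 45 and 54 for knockout cells at 12 h and 24 h became 12 and 9 with scaling over all, 27 and 21 with quantile normalization, and 0 and 0 with the deposited values (7 and 14 unadjusted). At 12 h, 38 of the 45 were higher, against 12 of 12 with scaling over all. The median of all tested miRNAs at 12 h moved as well, being 0.25 in the reported fit, 0.03 with scaling over all and -0.045 with quantile normalization. Normexp fitted on all spots failed on 1 array (a background SD of 1593, against 0.964 to 2.85 on the others) and was replaced, after the data were seen, by a fit on 500 quantiles. Leaving out the 3 dimmer arrays or the treated wild-type arrays was also chosen after seeing the data. With 2 arrays a group, 1 slide per treatment and signals near the floor for miR-31*, small changes of either strand cannot be resolved.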

Other observations

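The scanner software's own total signal for miR-31* stood apart on 1 array. In knockout cells at 12 h, replicate 2, the total was 70.1 intensity units, 3.59 times the sum of the totals of its own probes, 19.6. The authors' deposited log2 value for that array is 6.13, against 5.27 for replicate 1. On the other arrays that detected the strand, total and sum were nearly the same. Across arrays, 26.3% to 34.2% of detected miRNAs had a total over 2 times the sum of their probe totals, so the values reported above are sums over probes. With the software's total in their place, the log2 difference of miR-31* between knockout cells at 24 h and at 12 h was -2.33 (limma, adjusted p = 0.616, n = 2 per group), against -0.59 with probe sums (adjusted p = 0.648). The -2.33 also includes replicate 2 of knockout cells at 24 h, where the strand was undetected. There the software's total was 0.1, against 8.13 for the sum of its probe totals, so the array entered at the floor.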
